A study of Mus musculus with 6 samples.

Results

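The 10 genes described here encode secreted proteins that build basement membranes: the nidogens Nid1 and Nid2, the laminin chains Lama2, Lama4, Lama5, Lamb1, Lamb2 and Lamc1, the proteoglycan perlecan (Hspg2) and the proteoglycan agrin (Agrn). They were chosen by gene symbol from the 17460 genes of the liver table and not by a cut on their values. Earlier results of these data were known when the choice was made. All 10 passed the filter on low values. RNA was sequenced from whole livers of C57BL/6 mice aged 9 months that had eaten a NASH diet for 24 weeks, with 3 control livers and 3 livers of Blnc1 liver-specific knockout (LKO) mice. Blnc1 is a long noncoding RNA, and the study made LKO mice by injecting Cas9 transgenic mice through the tail vein with an adenovirus that carries 2 single-guide RNAs against it. The vector given to the control mice of this cohort was not given in the sources used here. Adenovirus enters hepatocytes well and the non-parenchymal cells of the liver poorly, as the study's authors also point out. LKO livers thus model a loss of Blnc1 mainly in hepatocytes. The paper reports a partial loss, moderate in whole liver and larger in isolated hepatocytes, with little change in non-parenchymal cells. No row analysed here carries the name Blnc1, and its loss was not measured here.

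Basement membranes are thin sheets of matrix under epithelia and around vessels, nerves and muscle. Each laminin is a trimer of an alpha, a beta and a gamma chain that self-assembles into a network, nidogens bridge the laminin network to the collagen IV network, and perlecan and agrin add heparan sulfate chains that hold growth factors. The healthy liver sinusoid lacks a continuous basement membrane, while bile ducts and larger vessels have one, and deposition of laminin and collagen IV along the sinusoid, called capillarization, is a known feature of liver fibrosis. Stellate cells, endothelial cells and cholangiocytes are known sources of these proteins in liver.

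The values are normalized read counts, that is, reads per gene divided by a scaling factor for each liver. The recovered depth was 65384969 to 89350181 reads per liver, and the 10 genes took between 0.0249% and 0.0348% of them. Single members had from 368 reads (Nid2, lowest liver) to 7373 reads (Nid1, highest liver), so that counting alone gives an error of 5.21% for Nid2 and 1.52% for Nid1 at their lowest liver. Livers of a group were distinct libraries: a chi-square of their reads, divided by its degrees of freedom, was 20.8 to 69.96 over genes with at least 10 reads, where counting alone would give about 1. Each liver is a separate sample in the labels, and p-values set a difference between the groups against the spread between these livers. In whole liver, fewer cells of a type and less RNA per cell cannot be told apart.

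Levels were compared between genes per length, as RPKM, which scales the recovered reads to exon length and library depth. In control livers Nid1 was the most abundant member, at 13.6 ± 0.877 RPKM (SD, n = 3), and Lama2 the least abundant, at 0.582 ± 0.074 RPKM. Between them came Agrn at 6.59 RPKM, Lamc1 at 4.76, Hspg2 at 3.71, Lamb1 at 2.47, Lamb2 at 2.21, Nid2 at 1.71, Lama4 at 1.09 and Lama5 at 1.01. Each neighbour in this order kept its place in 3 of 3 control livers, but the ranges over livers of Lamb1 and Lamb2 overlapped, and so did those of Lama4 and Lama5. Of the 6 collagen IV chains, which form the other network of the basement membrane, Col4a1 at 18.5 RPKM and Col4a2 at 12.4 RPKM stood above most members. Col4a5 was at 1.09 RPKM, and Col4a3 (0.144), Col4a6 (0.122) and Col4a4 (0.108) were below Lama2.

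Summed over all chains of a class, the alpha chains were the scarcest in control livers. The 5 alpha chains came to 3.58 ± 0.260 RPKM, the 3 beta chains to 6.00 ± 0.324 RPKM and the 3 gamma chains to 7.28 ± 0.731 RPKM. In LKO livers the sums were 3.48 ± 0.691, 5.59 ± 0.768 and 6.98 ± 1.21 RPKM in the same order, with ranges over livers that overlapped those of control livers. The pair of nidogens came to 15.3 ± 0.883 RPKM in control livers and 12.2 ± 1.80 RPKM in LKO livers, where every LKO liver was below every control liver.

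**Figure D1:**
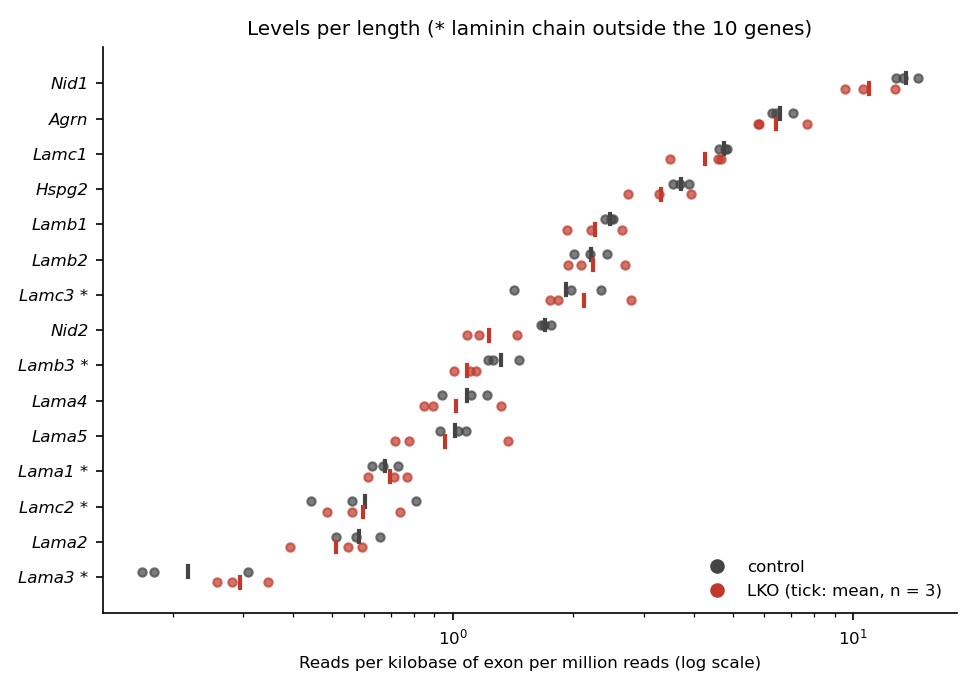
Level per length in RPKM (log axis) of the 10 members and the 5 other laminin chains (marked *), with a point per liver and a tick at the mean of 3 livers, control in grey and LKO in red. Nid1 stands highest, at a control mean of 13.6 RPKM, and Lama2 is the lowest member, at 0.582 RPKM, above Lama3 at 0.218 RPKM.

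The nidogens were the members with the clearest separation between the groups. Nid1 had 6874, 6594 and 7548 normalized read counts in control livers and 5169.7, 6303 and 5483 in LKO livers. All 3 LKO livers were below all 3 control livers, with LKO 2 nearest to them. The means were 7005 ± 490.3 and 5652 ± 585 (SD, n = 3 each), a difference of -19.3%, with a log2 fold change of -0.31 (SE 0.0836, 95% interval -0.50 to -0.12) on the log2(value + 1) scale. Its adjusted p in limma over all tested genes was 0.650, so the difference did not pass the threshold of 0.05.

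Nid2, the less abundant nidogen, had 676, 636 and 654 normalized read counts in control livers and 438, 536 and 449 in LKO livers. The control livers lay close together and the LKO livers were all below them, again with LKO 2 highest. The means were 655 ± 19.99 and 474 ± 53.5, a difference of -27.7%, with a log2 fold change of -0.47 (SE 0.0976, 95% interval -0.69 to -0.25) and an adjusted p of 0.548 in limma. DESeq2 on the recovered reads gave Nid2 an adjusted p of 0.0184 and Nid1 one of 0.144, while edgeR gave 0.543 and 0.713 and voom 0.564 and 0.727. Nid2 was thus called lower by DESeq2 and by none of the other tools run (limma, edgeR and voom). DESeq2 called 0.538% of the genes it tested, edgeR 0.0116% and voom 0.00578%. Of the exon bases of Nid2, 437 (8.45%) overlap the gene Rtraf on the other strand, and the library kit does not mark strand, so reads of those bases cannot be told apart. Rtraf had 5003 ± 54.4 normalized read counts in control and 4599 ± 531 in LKO livers, with a log2 fold change of -0.13 (adjusted p = 0.951, limma), and its part in the Nid2 difference was not tested.

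Nid1 lies on chromosome 13 (GRCm38, 13437551 to 13512269, plus strand) and Nid2 on chromosome 14 (19751265 to 19811787, plus strand). Promoter windows of 300 bases around the start, most of each before it, from RefSeq on GRCm38.p6, were matched for 7 of the 10 members (all but Nid2, Lama4 and Lamc1). The windows of Nid1 and Hspg2 are shown. The groups separated for Nid1 and Nid2, of which only Nid1 had a window, and Hspg2 was the member most like the other members across livers. Capitals mark each GC box and CCAAT box on either strand (the letters GGGCGG or CCAAT, or their reverse complements), and the windows are chr13:13437352-13437651 and chr4:137468553-137468852, both on the plus strand.
Nid1: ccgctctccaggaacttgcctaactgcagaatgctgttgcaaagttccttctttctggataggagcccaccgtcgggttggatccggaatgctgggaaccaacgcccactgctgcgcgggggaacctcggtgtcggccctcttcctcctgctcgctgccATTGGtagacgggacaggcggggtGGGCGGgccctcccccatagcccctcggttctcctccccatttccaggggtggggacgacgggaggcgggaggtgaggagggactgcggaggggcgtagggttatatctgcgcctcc
Hspg2: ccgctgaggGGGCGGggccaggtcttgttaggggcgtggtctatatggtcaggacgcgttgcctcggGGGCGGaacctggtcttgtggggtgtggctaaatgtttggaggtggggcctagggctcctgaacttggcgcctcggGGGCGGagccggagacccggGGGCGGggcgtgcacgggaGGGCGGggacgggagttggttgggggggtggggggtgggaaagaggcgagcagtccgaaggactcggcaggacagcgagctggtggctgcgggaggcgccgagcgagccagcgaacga

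The GC box was found in the windows of 6 of the 7 members (Agrn, Hspg2, Lama2, Lama5, Lamb1 and Nid1), against 35.7% of 32851 windows of the same length. Members with a window had a GC content from 44.0% (Lamb2) to 83.3% (Agrn), against a median of 52.7% over all windows. Agrn had 2 windows, at 61.3% and 83.3%, and a member was counted where any of its windows matched. CCAAT was found for 2 of 7 (Lamb1 and Nid1), against 37.4% of windows. The TATA box TATAAA was found for 0 of 7, against 13.6% of windows, and the AP-1 site TGANTCA for 0 of 7, against 7.81% of windows. No binding was measured here, and a match of letters is not a bound site.

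Among the laminins, Lamc1, the gamma chain shared by most laminin trimers and the chain that nidogen binds, had 2839.9, 2964 and 2965 normalized read counts in control livers and 2249, 2771 and 2840.7 in LKO livers. The groups met at a single pair of livers, where LKO 3 stood just above control 1. The log2 fold change was -0.17 (SE 0.0886, 95% interval -0.37 to 0.04, adjusted p = 0.925, limma). Lamc1 lies on chromosome 1 (153218922 to 153332786, minus strand).

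The beta chain Lamb1, the partner of Lamc1 in most embryonic and vascular laminins, had 1847, 1764 and 1838 normalized read counts in control livers and 1485, 1880.1 and 1641 in LKO livers. LKO 1 and LKO 3 were below every control liver and LKO 2 was above every one, for a log2 fold change of -0.13 (SE 0.0865, adjusted p = 0.951, limma). Lamb2, the other beta chain among the members, had 906, 994 and 1101 in control livers and 916, 1173 and 950.0 in LKO livers. These groups overlapped, and Lamb2 was the member with the smallest difference between the means, at a log2 fold change of 0.01 (95% interval -0.24 to 0.27, adjusted p = 0.999, limma). Lamb1 lies on chromosome 12 (31265234 to 31329644, plus strand) and Lamb2 on chromosome 9 (108479736 to 108490530, plus strand).

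Of the alpha chains, Lama4, found mainly around vessels, had 841, 989.7 and 1096 normalized read counts in control livers and 799, 1135 and 804 in LKO livers. Lama5, found under epithelia and in mature vessels, had 783, 869 and 921 in control livers and 635, 1116 and 660.1 in LKO livers. Both chains had LKO 1 and LKO 3 below every control liver and LKO 2 above every one. Their log2 fold changes were -0.11 (95% interval -0.45 to 0.24) and -0.14 (95% interval -0.59 to 0.31), with an adjusted p of 0.978 in limma for each. Lama5 had the widest spread of the members in LKO livers, with a coefficient of variation of 33.7%, while in control livers its 8.13% was below that of Lama2 (13.2%), Lama4 (13.1%) and Lamb2 (9.77%). Lama4 lies on chromosome 10 (38965515 to 39110188, plus strand) and Lama5 on chromosome 2 (180176373 to 180225859, minus strand).

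Lama2, the alpha chain of muscle and mesenchymal laminins, had 696, 619 and 804 normalized read counts in control livers and 499.8, 691 and 668 in LKO livers. LKO 1 was below every control liver and the other two LKO livers were inside the control range. The log2 fold change was -0.20 (SE 0.143, 95% interval -0.52 to 0.13, adjusted p = 0.968, limma). Lama2 lies on chromosome 10 (26980036 to 27619758, minus strand). Of its exon bases, 631 (3.86%) overlap the antisense gene Gm48084, and for Nid1 143 (2.06%) overlap the antisense gene Gm48682.

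Of the proteoglycans, perlecan (Hspg2) had 3762, 3902 and 4172 normalized read counts in control livers and 3043, 4017 and 3498 in LKO livers. LKO 1 and LKO 3 were below the control livers and LKO 2 lay between control 2 and control 3. Its log2 fold change was -0.17 (SE 0.0966, 95% interval -0.39 to 0.05, adjusted p = 0.930, limma). Agrin (Agrn), which clusters receptors at the nerve-muscle synapse and in liver is known from bile ducts and vessels, had 4319.6, 4400.0 and 4912 in control livers and 4172, 5076 and 4025 in LKO livers. LKO 2 was the highest and LKO 3 the lowest of the 6 livers, and the log2 fold change was -0.04 (95% interval -0.26 to 0.17, adjusted p = 0.988, limma). Both genes lie on chromosome 4, Hspg2 at 137468769 to 137570630 on the plus strand and Agrn at 156165290 to 156197488 on the minus strand.

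**Figure D2:**
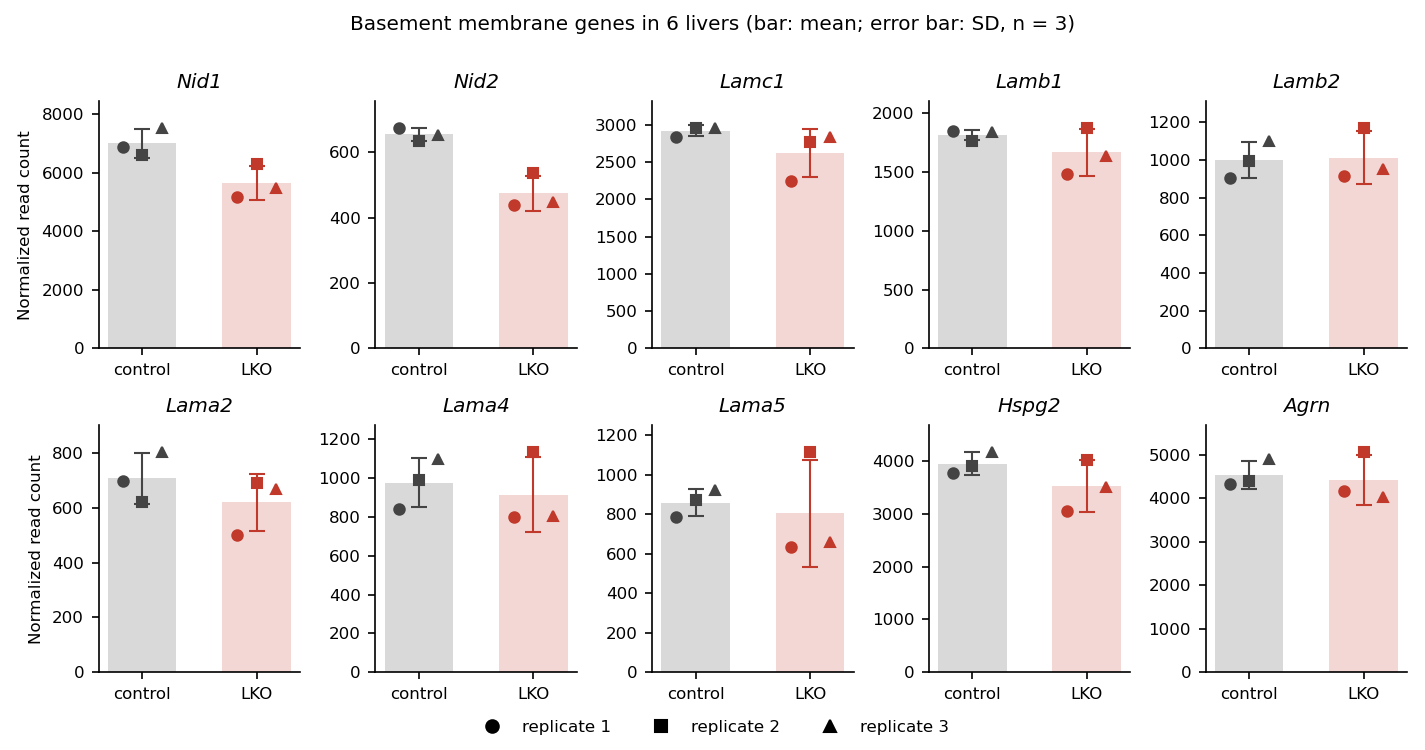
Normalized read count of each of the 10 members in each liver, a panel per gene, with a point per liver (shape gives the replicate number), a bar at the group mean and an error bar of 1 SD (n = 3). The 3 LKO livers lie below the 3 control livers for Nid1 and Nid2, and for the other 8 members the groups overlap.

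Counted over the members, 0 of 10 passed the adjusted p of 0.05 in limma, against 0.00578% of all genes tested. At an unadjusted p under 0.05 there were 2 of 10 members, against 5.68% of all genes. Both were lower in LKO livers (Nid1 and Nid2, against 2.74% of all genes), and 0 of 10 were higher (against 2.94%). All LKO livers were below all control livers for the same pair of genes, against 5.28% of all genes, and above them for 0 of 10, against 5.35%. The mean was lower in LKO livers for 9 of 10 members, Lamb2 being the exception, against 50.4% of all genes. The median log2 fold change was -0.15 over the members and -0.001 over all genes. These members share livers, and a shift common to a liver moves all of them.

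**Figure D3:**
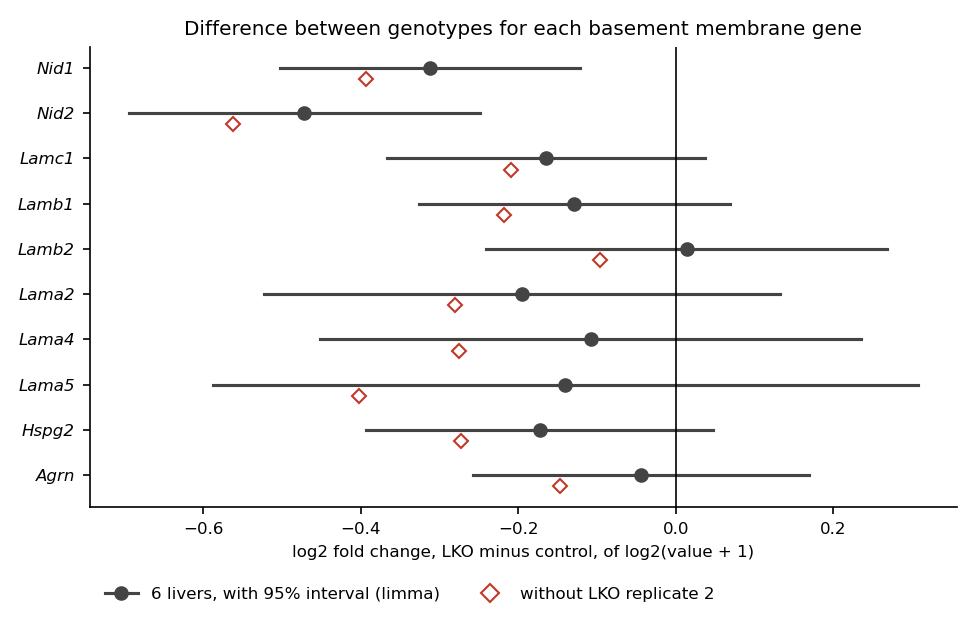
Log2 fold change of each member, LKO minus control on the log2(value + 1) scale, with its 95% interval from limma, a line at 0 and, as open diamonds, the value without LKO 2. The intervals of Nid1 (-0.50 to -0.12) and Nid2 (-0.69 to -0.25) lie below 0 and the other 8 intervals include 0.

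Livers of a group differed from one another in the same way for most members. As the mean over the 10 members of the log2 deviation from the control mean, control livers stood at -0.06, -0.03 and 0.10 and LKO livers at -0.35, 0.05 and -0.22. LKO 2 was the highest LKO liver for 9 of 10 members (Lamc1 was the exception), against 34.2% of all genes, and LKO 1 was the lowest for 9 of 10 (Agrn was the exception), against 36.5%. Control 3 was the highest control liver for 8 of 10 members, against 35.5%. LKO 1 and LKO 3 were both below every control liver for 7 of 10 members, against 13.6% of all genes. This pair was singled out from the same member values, so its count is a description only. The coefficient of variation was higher in LKO than in control livers for 10 of 10 members, against 66.8% of all genes, with ranges of 2.46% to 13.2% in control and 10.4% to 33.7% in LKO livers.

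The fit was repeated without each liver in turn, and that without LKO 2 is given here because this liver was the highest LKO liver for most members. That choice rests on the same member values, so lower values in this fit follow in part from it and are a description only. Then 10 of 10 members had a lower mean in LKO livers (49.4% of all genes), 6 of 10 had an unadjusted p under 0.05 (5.44% of all genes) and 0 of 10 an adjusted p under 0.05 in limma (0.0752% of all genes). The median log2 fold change was -0.27. Nid2 was at -0.56 (adjusted p = 0.128, limma), Nid1 at -0.39 (adjusted p = 0.154, limma) and Lama5 at -0.40 (adjusted p = 0.235, limma). Without LKO 1 the median over the members was instead -0.048, nearer to 0 than with all 6 livers. In that fit 8 of 10 members had a lower mean in LKO livers. An unadjusted p under 0.05 in limma was reached by 2 of 10. An adjusted p under 0.05 was reached by 0 of 10, against 2 of the 17297 genes tested. For this fit the shares of all genes with a lower mean or an unadjusted p under 0.05 were not computed.

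Ratios within a liver do not depend on its scaling factor. The ratio of Nid2 to Nid1 was 0.0983, 0.0965 and 0.0866 in control livers and 0.0847, 0.0850 and 0.0818 in LKO livers. It was lower in every LKO liver, by a log2 difference of -0.16, with an exact permutation p of 0.1 (two-sided), the smallest that 3 against 3 livers allow, and 0.333 after adjustment over the 5 ratios fixed. The ratio of Lamb2 to Lamb1 had a log2 difference of 0.14 (exact p = 0.2), that of Hspg2 to Agrn one of -0.13 (exact p = 0.2), that of Lama5 to Lama4 one of -0.03 (exact p = 0.7) and that of Lamc1 to the sum of Lamb1 and Lamb2 one of -0.09 (exact p = 0.4). The groups overlapped for each of these 4 ratios.

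Nidogens were also set against Lamc1, the chain they bind, in a pair of ratios chosen after the values were seen. Nid2 to Lamc1 was 0.238, 0.215 and 0.221 in control livers and 0.195, 0.193 and 0.158 in LKO livers. All LKO livers were lower, with a log2 difference of -0.31 (exact permutation p = 0.1, two-sided). Nid1 to Lamc1 was 2.42, 2.22 and 2.55 in control livers and 2.30, 2.28 and 1.93 in LKO livers, where the groups overlapped, and the log2 difference was -0.15 (exact permutation p = 0.3).

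Other genes of the basement membrane were read from lists. Of the 5 other laminin chains, 1 had an unadjusted p under 0.05 and was lower, Lamb3, an epithelial chain with 648 ± 67.6 normalized read counts in control and 536 ± 46.5 in LKO livers (log2 fold change -0.27, adjusted p = 0.842, limma). Of the 8 basement membrane collagens, 2 were lower at that level, Col4a1 (10243 ± 407 and 7831 ± 1437, log2 fold change -0.40, adjusted p = 0.695, limma) and Col4a2 (log2 fold change -0.30, adjusted p = 0.824, limma). Col4a1 had all LKO livers below all control livers, while Col4a2 overlapped between groups and the median of the 8 was 0.01.

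Of 14 other basement membrane proteins, 2 were lower at an unadjusted p under 0.05, the collagen-binding protein Sparc (log2 fold change -0.26, adjusted p = 0.785, limma) and the crosslinking enzyme Pxdn (-0.19, adjusted p = 0.873, limma), with a median of -0.03 over the list. Of 16 receptors for laminin, collagen IV and agrin, 2 were lower, the heparan sulfate proteoglycan Sdc1 and the laminin receptor chain Itga6. Sdc1 had 14608 ± 983 normalized read counts in control and 11663 ± 443 in LKO livers (log2 fold change -0.32, adjusted p = 0.548, limma), and Itga6 had 871 ± 89.4 and 722 ± 63.0 (log2 fold change -0.27, adjusted p = 0.840, limma). Of 17 enzymes that make or edit heparan sulfate 0 had an unadjusted p under 0.05, and of 9 proteases that cut basement membrane proteins 1 did, the membrane-bound metalloproteinase Mmp14 (3463 ± 207 and 2911 ± 510.0, log2 fold change -0.26, adjusted p = 0.870, limma). No gene of these lists passed the adjusted p, and 0 of them were higher at an unadjusted p under 0.05.

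Markers of the cell types that make basement membrane were read beside the members. Of 10 activated stellate cell and fibroblast markers, 6 were lower at an unadjusted p under 0.05, with a median log2 fold change of -0.40. Their summed level was 61295 to 74972 normalized read counts in control livers and 46307 to 59444 in LKO livers, ranges that do not meet. That sum mainly follows the collagen chains Col3a1, Col1a2 and Col1a1, with control means of 33442, 14055 and 13967. All LKO livers were below all control livers for 5 of the 10 markers. The rest overlapped, among them Pdgfrb (log2 fold change -0.10) and Pdgfra (0.03). Col1a1, a fibrillar collagen chain, had 13967 ± 2053 and 9144 ± 1564 (log2 fold change -0.61, adjusted p = 0.548, limma), and Acta2, the actin of activated stellate cells, had 554 ± 23.3 and 387 ± 48.6 (log2 fold change -0.52, adjusted p = 0.548, limma). By liver, the mean deviation of the 10 markers was 0.02, -0.08 and 0.06 in control and -0.42, -0.14 and -0.51 in LKO livers, and that of the nidogens was 0.01, -0.06 and 0.05 and -0.51, -0.22 and -0.45. The part of stellate cell activation in the nidogen difference was not tested.

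Quiescent stellate cell markers had a median log2 fold change of -0.01, with 1 of 10 lower at an unadjusted p under 0.05, and their summed levels overlapped (34500 to 37617 and 34884 to 39526). Of 10 sinusoidal endothelial markers, 4 were lower at that level, with a median of -0.12 and summed levels of 37073 to 40007 in control and 35990 to 36567 in LKO livers, which do not meet. Their mean deviation by liver was 0.02, -0.08 and 0.06 in control and -0.16, -0.16 and -0.09 in LKO livers, and their part in the nidogen difference was not tested. Lyve1, a hyaluronan receptor of sinusoidal endothelium, had the lowest log2 fold change of the 10, at -0.57 (adjusted p = 0.695, limma), and its groups overlapped. The mean was lower in LKO livers for 8 of the 10, while Stab2 (0.06) and Clec4g (0.02) had positive log2 fold changes. Of 7 vascular and capillarized endothelial markers, 2 were lower, with a median of -0.04 and overlapping sums (12097 to 12929 and 10124 to 12196).

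Cholangiocyte markers followed another pattern over the livers. Their mean deviation was -0.28, -0.08 and 0.35 in control and -0.20, 0.27 and -0.25 in LKO livers, with 0 of 7 at an unadjusted p under 0.05 and a median log2 fold change of -0.06. The 6 laminin chains stood at -0.08, -0.03 and 0.11 in control and -0.33, 0.13 and -0.16 in LKO livers. Both sets were highest in control 3 and in LKO 2 of their group. The activated stellate cell markers and the vascular and capillarized endothelial markers were also highest in these livers of their group. The vascular and capillarized markers stood at -0.08, 0.01 and 0.07 in control and -0.16, 0.03 and -0.10 in LKO livers. The part of bile duct, endothelial or stellate cells in the laminin values was not tested.

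**Figure D4:**
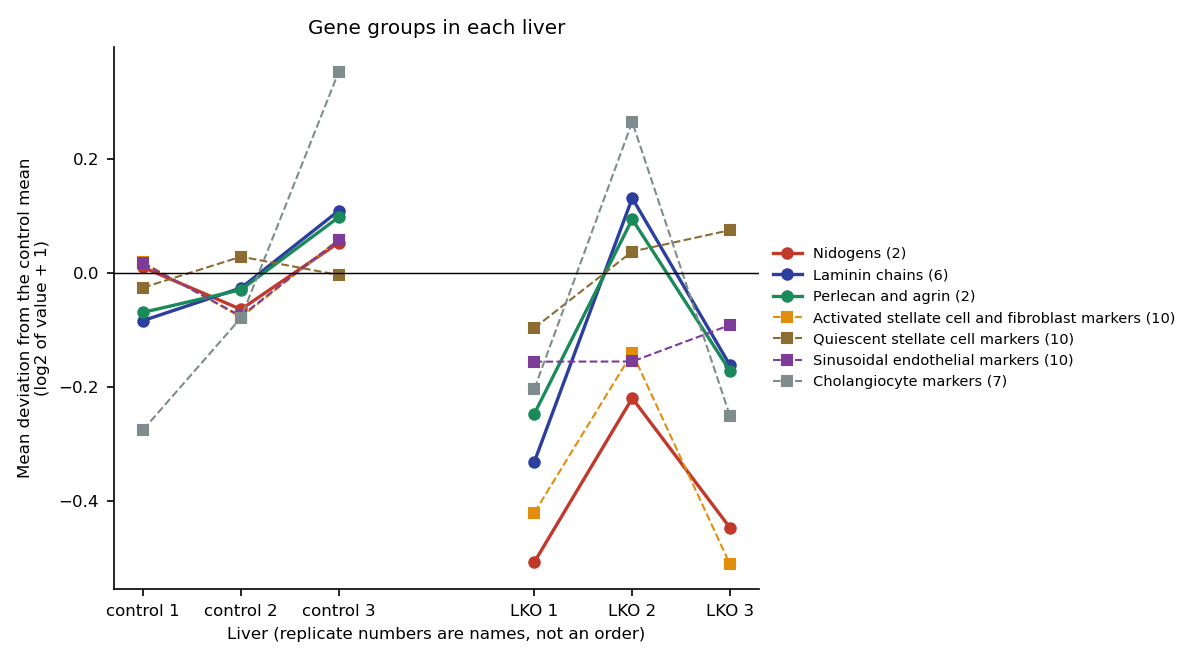
Mean log2 deviation from the control mean in each liver for the nidogens, the 6 laminin chains, perlecan with agrin, and 4 lists of cell type markers, with lines that join the points of a set and stand for no order of livers. The nidogens, the activated stellate cell markers and the sinusoidal endothelial markers are below 0 in all 3 LKO livers, while the laminins, the proteoglycans and the cholangiocyte markers are above 0 in LKO 2.

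The remaining marker lists were these. Portal fibroblast markers (6 genes), smooth muscle markers (5 genes) and hepatocyte markers (7 genes) had 0 genes at an unadjusted p under 0.05, with medians of -0.09, -0.14 and 0.03. Hepatocyte markers summed to 5420560 to 5947487 normalized read counts in control and 5303815 to 6371784 in LKO livers, which marks the tissue as liver. Of 6 Kupffer cell markers, 5 were higher at an unadjusted p under 0.05, with a median of 0.75, such as Vsig4, a complement receptor of resident macrophages (log2 fold change 1.04, adjusted p = 0.737, limma), and Marco, a scavenger receptor (47.8 ± 34.6 and 466 ± 351 normalized read counts, adjusted p = 0.577, limma). Of 5 mesothelial markers 1 was lower at that level, Krt8, a keratin that hepatocytes also make (log2 fold change -0.36, adjusted p = 0.684, limma). The other 4 had positive log2 fold changes, from 0.05 (Gpm6a) to 1.02 (Upk3b), none at an unadjusted p under 0.05, and the median of the 5 was 0.38. Wt1, a transcription factor of mesothelium, had all LKO livers above all control livers (log2 fold change 0.38, adjusted p = 0.885, limma). The summed Kupffer cell level overlapped between the groups, at 38675 to 44937 and 43088 to 52174. Cd5l made up the largest part of that sum, with means of 25063 in control and 25457 in LKO livers (log2 fold change 0.02). All LKO livers were above all control livers for 2 of the 6 Kupffer cell markers, Marco and Adgre1, against 5.35% of all genes.

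The genes whose pattern over the 6 livers was most like the members were found among 13429 genes by Pearson's r with the mean of the standardized members. They were Tchp (r = 0.998), Tsen34 (0.993), Ski (0.989), Pear1 (0.988), Cxcl16 (0.987), D17H6S56E-5 (0.985), Bgn (0.985) and Ptgfrn (0.984). Spearman's rho ran from 0.886 to 1.00. These are the highest of many values over few livers, and all 8 genes overlapped between the groups. Bgn, the small matrix proteoglycan biglycan, had 36839 ± 1615 normalized read counts in control and 33109.7 ± 5414 in LKO livers. Within the members, the likeness of each to the mean of the other 9 ran from r = 0.704 (Nid2) to r = 0.983 (Hspg2), as a description over the same 6 livers, which share depth and scaling.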

How the data were processed

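Liver RNA libraries (TruSeq v2, not strand-marking) were made from 3 control and 3 LKO mice. Per the submitters' processing notes, the authors used FastQC, STAR, HTSeq and DESeq2 with mm10; versions, annotation and the strand setting were not given in the sources used here. The signal values deposited by the authors are, for each gene, its read count over a scaling factor of that liver. Columns named for wild type and knockout were matched by number to control and LKO livers, and 0 per-sample columns were left unmatched. Division by the smallest value of a column gave whole reads for all values within 0.01.

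The limma package (3.58.1, R 4.3.3) was fitted with lmFit and eBayes with a trend to log2(value + 1), over the 17297 genes that reached a value of 1 in 3 livers or more. Adjustment was by Benjamini-Hochberg over all of these, at a threshold of 0.05. Fold changes on this scale understate changes of low genes. edgeR (4.0.16), DESeq2 (1.42.0) and voom were run on the recovered reads as alternatives, besides another pseudocount (0.1), other filters, library-size scaling, the replicate number as a block and leaving out each liver. Ratios were compared by an exact permutation test (scipy 1.17.1). The fits were tested on simulated data. Positions and exon lengths came from GENCODE M21 (GRCm38, the build called mm10), which held 16766 of the symbols. RPKM was computed from recovered reads and exon lengths, and 2 symbols occur more than once in the table.

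The members and the lists were chosen with earlier results of these data known. The rule for naming genes took the members and, in each list, the 2 genes of smallest unadjusted p with a mean of at least 20 in a group. It also took the 8 genes with a mean of at least 50 most like the members over the livers. Further list genes were named outside this rule, such as Pdgfrb, Stab2, Upk3b and Col4a5. Some genes that the rule took were not described, such as Rgs5, Plvap and Spp1.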

Additional observations from a re-analysis of the deposited data

How the results depend on the processing

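Of 140 alternative values for the members, 134 kept their direction and side of the threshold, 1 passed it (Nid2 with DESeq2, adjusted p = 0.0184) and 5 changed sign, all on leaving out a liver. These were Agrn at 0.01 without control 3 and 0.021 without LKO 3, Lama5 at 0.0039 without LKO 1, and Lamb2 at -0.06 without control 1 and -0.10 without LKO 2. Leaving out livers gave log2 fold changes of -0.39 to -0.25 for Nid1, -0.56 to -0.42 for Nid2, -0.15 to 0.021 for Agrn, -0.40 to 0.0039 for Lama5 and -0.10 to 0.085 for Lamb2. It gave a median over the members of -0.27 to -0.05. There were 2 to 6 members lower at an unadjusted p under 0.05, and 0 members past the adjusted p. The 6 came without LKO 2, where 5.44% of all genes were lower at that level, against 2.74% with all 6 livers. The Lama5 to Lama4 ratio changed sign without control 1, LKO 1 or LKO 3, over a range of -0.13 to 0.026.

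Over all genes, limma called 1 gene, against 2 without the filter, 2 with edgeR, 84 with DESeq2 and 0 to 13 on leaving out a liver (0 without control 1, 3 without control 2, 2 without LKO 1 and 13 without LKO 2). DESeq2 called 1 member. Same-numbered livers did not deviate together (correlations -0.0584, -0.0191 and -0.107), and pairs of different number gave -0.0473 to 0.105. With so few livers in a group, such correlations cannot show whether same-numbered livers were handled together. With the replicate number as a block 0 genes and 0 members were called, and the adjusted p was 0.827 for Nid1 and 0.675 for Nid2. The cause of these changes was not tested. The counting error of a member in its lowest liver was 1.52% to 5.21%, beside a spread between livers of 2.46% to 13.2% in control and 10.4% to 33.7% in LKO livers, which also holds differences between mice. The 95% intervals of the 8 other than the nidogens reach down to between -0.59 and -0.24.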
